A study of Mus musculus with 5 samples.

Results

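The core circadian clock genes are described here across 5 liver arrays. The members are the 10 genes Arntl, Clock, Npas2, Per1, Per2, Per3, Cry1, Cry2, Nr1d1 and Nr1d2, found as non-control probes whose gene name is one of these symbols. They are 10 of the 36870 gene names on the array and are read by 25 probes. The livers came from female BALB/c mice, 6 weeks old, taken 6 hr after intraperitoneal dosing. Mice received vehicle, TGZ (troglitazone) at 300 mg/kg, BSO (buthionine sulfoximine) at 700 mg/kg with TGZ at 300 mg/kg, RGZ (rosiglitazone) at 300 mg/kg, or BSO at 700 mg/kg with RGZ at 300 mg/kg. Both TGZ and RGZ belong to the thiazolidinediones, agonists of the nuclear receptor PPAR gamma, and BSO blocks the synthesis of glutathione. RNA of 6 livers was pooled per group and read on 1 single-colour Agilent array, and no group received BSO alone. The time of day of dosing and collection was not given in the sources used here, and all groups share the 6 hr interval.

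The mammalian clock is a transcriptional feedback loop that runs in nearly every cell, the hepatocyte included. BMAL1, encoded by Arntl, pairs with CLOCK or its relative NPAS2 and activates genes through E-box elements. Among these genes are Per1, Per2, Per3, Cry1 and Cry2, whose protein products return to the nucleus and repress BMAL1 and CLOCK. A further loop runs through the nuclear receptors REV-ERB alpha and beta, encoded by Nr1d1 and Nr1d2, which repress Arntl at ROR elements where the ROR receptors activate it. D-box elements form an additional layer, activated by DBP, TEF and HLF and repressed by NFIL3. In liver the clock sets daily rhythms of lipid, glucose and bile acid metabolism.

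Signals are given as the log2 of the processed signal over the array's 75th percentile, so 0 marks that percentile, and a difference is a difference of these values. Levels of different probes are not comparable, so no order among genes is drawn. A gene was represented by its probe of highest mean signal. The interval beside a difference is a 95% interval of spot measurement error from the scanner software, and covers no variation between animals or pools. With 1 array per group, differences were not tested and have no replicate check. Precision is limited by the number of arrays. A gene was counted as past the threshold at 2-fold or more. Where 1 of the arrays compared was not well above background, the lowest signal called well above background on that array took the place of any lower value, and such a difference is given as a bound ("at least"). A bound carries no interval of measurement error and holds for the main processing only. Of the probes on each array, 51.9% to 55.2% were well above background. Of the 10 members, 8 were well above background on every array. Npas2 passed on no array, and Per3 passed on all but the TGZ array. All 4 comparisons with vehicle share the vehicle array, so a direction seen in several treated groups is not a repeat.

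**Figure D1:**
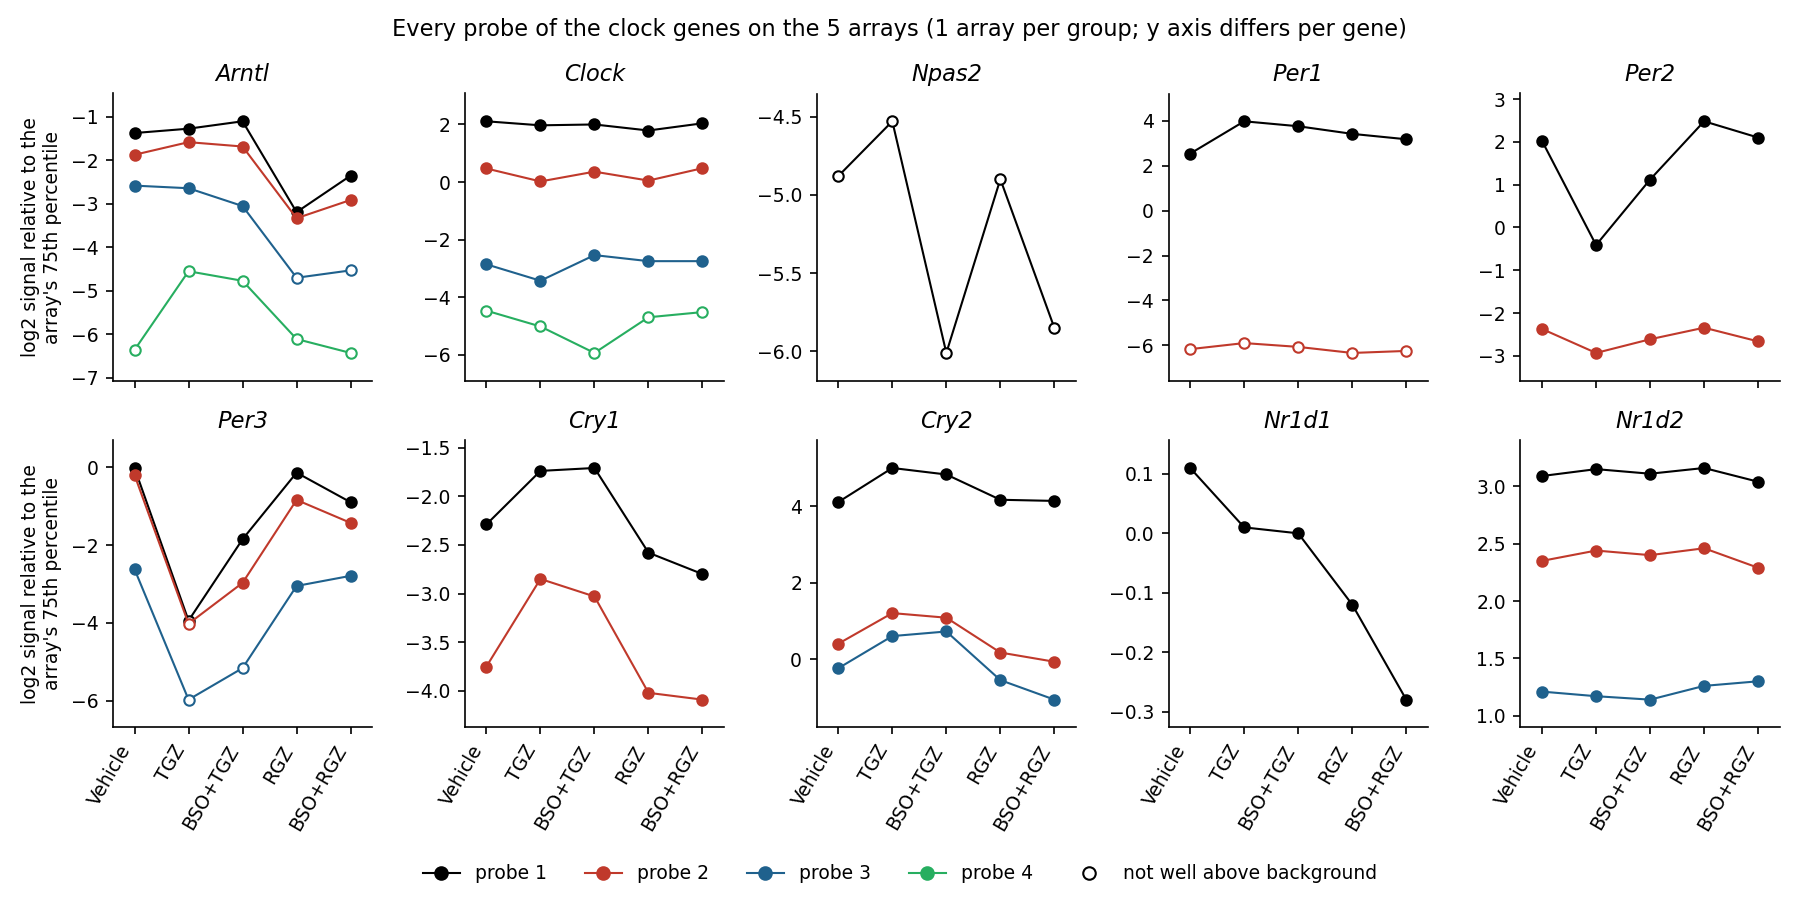
Log2 signal relative to the array's 75th percentile (y axis, scale differing per gene) in each of the 5 groups (x axis, 1 array each) for all 25 probes of the 10 clock genes. Filled points were well above background and open points were not. Per2 and Per3 are lowest on the TGZ array, Arntl on the RGZ array by its most intense probe, and the Nr1d2 probes are nearly level.

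The period genes encode repressors of the loop, and Per3 and Per2 had the widest ranges of all members, 3.90 and 2.89 on the log2 scale. Per3 was at -0.02 with vehicle, -3.94 with TGZ (not well above background), -1.85 with BSO plus TGZ, -0.14 with RGZ and -0.90 with BSO plus RGZ. The TGZ array is lowest, the BSO plus TGZ array lies between, and the RGZ array is close to vehicle. Against vehicle, Per3 was lower by at least 14.9-fold with TGZ and 3.55-fold with BSO plus TGZ (interval 2.65 to 4.77). It was 1.84-fold lower with BSO plus RGZ (1.39 to 2.44). With RGZ the difference was -0.12, with an interval from -0.52 to 0.29. By the other ways of processing, the TGZ difference ran from -4.35 to -1.60 on the log2 scale, where the main bound was -3.90. The most intense Per3 probe lies on mouse chromosome 4 at 150385608 to 150385667 of build mm9, minus strand, and stands for an Ensembl transcript. The second, for a RefSeq transcript, lies at 150378473 to 150378532 and gave differences from vehicle of -3.72 (a bound) with TGZ, -2.77 with BSO plus TGZ, -0.65 with RGZ and -1.23 with BSO plus RGZ. The third and dimmest, for another RefSeq transcript, gave bounds of -1.30 and -1.45 for the TGZ groups. It gave -0.43 (-0.96 to 0.11) with RGZ and -0.17 (-0.69 to 0.35) with BSO plus RGZ, both intervals including 0. No mm9 gene annotation was used, so exons are not assigned.

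The Per3 promoter is shown because it holds 2 exact D-boxes while the genes of D-box factors also differed between these arrays. The window covers bases -230 to -131 from the RefSeq start (GRCm38.p6, chr4:151044796-151044895, minus strand), with the D-boxes in capitals.
Per3 promoter: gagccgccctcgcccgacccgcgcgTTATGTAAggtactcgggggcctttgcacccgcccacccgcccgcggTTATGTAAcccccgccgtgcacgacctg
The letters TTATGTAA start at -205 and at -158, which is 47 bases apart. A D-box was searched as TTATGTAA or TTACGTAA on both strands. It is present in 1.06% of the 32851 RefSeq promoter windows, each 250 bases before to 50 after a start, and in 2 or more copies in 0.0244% (8 windows). A match of letters does not show that a factor is bound.

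Genes of the D-box factors had the following levels on the same arrays. Dbp, an activator at D-boxes, was at 5.73 with vehicle, 1.69 with TGZ, 2.83 with BSO plus TGZ, 5.69 with RGZ and 5.25 with BSO plus RGZ. Hlf, a related activator, was at 2.35, -0.41, 0.86, 2.13 and 1.83 in the same order. Both were lowest with TGZ, next lowest with BSO plus TGZ, and near vehicle with RGZ, the order seen for Per3. Genes outside the D-box factors, such as Fasn, had that order too. Nfil3, the repressor at D-boxes, was at 2.78, 5.73, 5.53, 2.39 and 2.25, high with TGZ and BSO plus TGZ alone among the 5. Whether any of these factors bears on the Per3 level was not tested.

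Per2 was at 2.02 with vehicle, -0.41 with TGZ, 1.12 with BSO plus TGZ, 2.48 with RGZ and 2.10 with BSO plus RGZ. It was lowest with TGZ and highest with RGZ. Against vehicle it was 5.38-fold lower with TGZ (4.07 to 7.12) and 1.86-fold lower with BSO plus TGZ (1.41 to 2.46). It was 1.37-fold higher with RGZ (1.04 to 1.81), and with BSO plus RGZ the difference was 0.08 (-0.32 to 0.48). By the other ways of processing, the TGZ difference of -2.43 on the log2 scale ran from -2.89 to -1.49. The probe lies on chromosome 1 at 93312595 to 93312654 (mm9, minus strand). A second, dimmer Per2 probe at 93336538 to 93336597 had the same sign with TGZ but a smaller size, with a difference of -0.56. It gave -0.24 with BSO plus TGZ, 0.03 with RGZ and -0.29 with BSO plus RGZ.

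Per1, a period gene also induced by glucocorticoids and cAMP, was highest with TGZ and BSO plus TGZ, where Per2 and Per3 were lowest. It was at 2.54 with vehicle, 3.98 with TGZ, 3.76 with BSO plus TGZ, 3.42 with RGZ and 3.18 with BSO plus RGZ. Vehicle was the lowest of the 5 arrays. Per1 was 2.72-fold higher with TGZ (2.06 to 3.59), 2.33-fold with BSO plus TGZ (1.76 to 3.07), 1.84-fold with RGZ (1.40 to 2.43) and 1.56-fold with BSO plus RGZ (1.18 to 2.05). The TGZ difference was 1.44 on the log2 scale, but 0.99 with spike-in scaling and 0.86 with the mean over both probes, each short of 2-fold. With BSO plus TGZ the mean over probes gave 0.66. The probe lies on chromosome 11 at 68923364 to 68923423 (mm9, plus strand). The other Per1 probe, for an Ensembl transcript, was not well above background on any array. A Per1 promoter window holds an exact E-box, CACGTG, in capitals here, from -166 to -161 of its RefSeq start (GRCm38.p6, chr11:69098771-69098800, plus strand).
Per1 E-box: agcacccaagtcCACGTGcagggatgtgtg
E-boxes of these letters are present in 7.15% of the RefSeq windows.

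**Figure D2:**
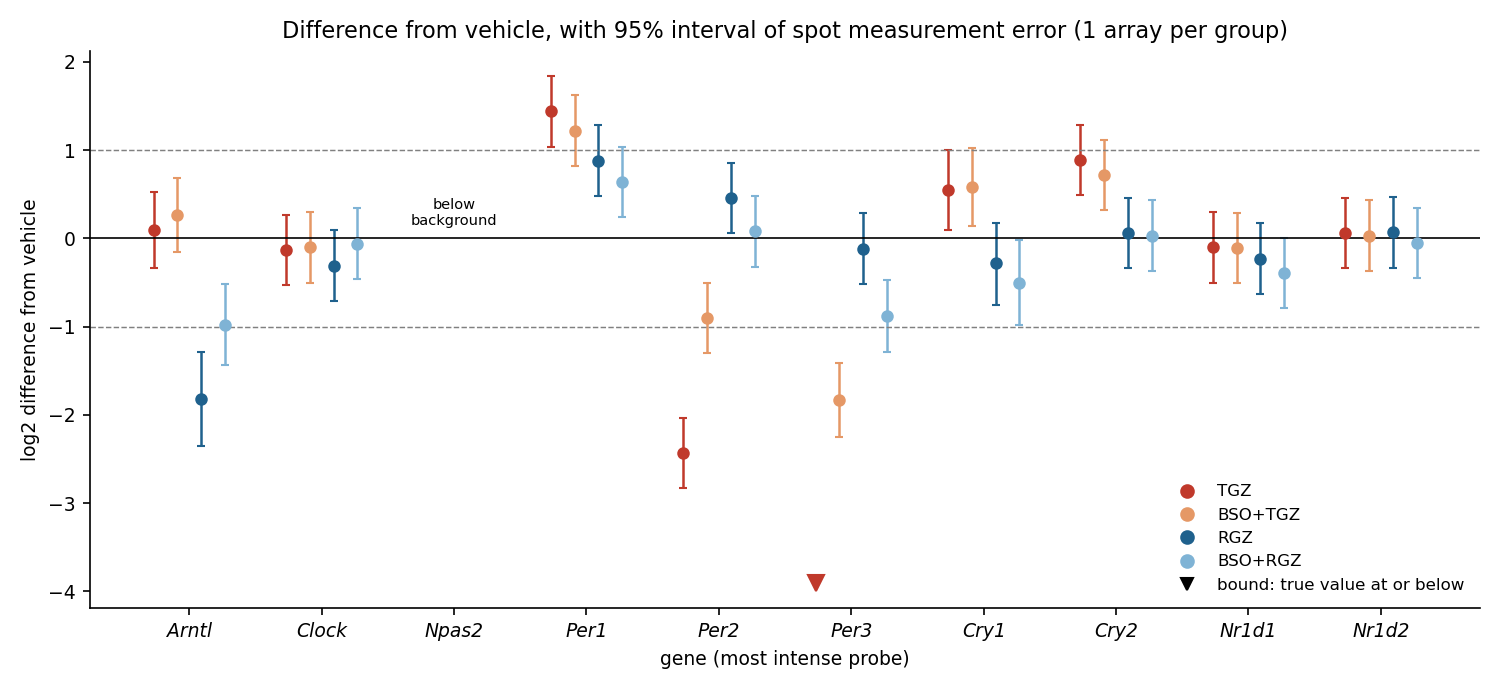
Log2 difference from vehicle (y axis) for each clock gene (x axis) in the 4 treated groups, with 95% intervals of spot measurement error and dashed lines at 2-fold. The triangle is a bound: Per3 with TGZ is at -3.90 or below. Per2 and Per3 lie far below 0 with TGZ, Arntl lies below 0 with RGZ and BSO plus RGZ, and Per1 lies above 0 in all 4 groups.

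Cryptochromes are the partners of the period proteins in repression. Cry2 was at 4.11 with vehicle, 5.0 with TGZ, 4.83 with BSO plus TGZ, 4.17 with RGZ and 4.14 with BSO plus RGZ. The arrays with TGZ were the high ones. Cry2 was 1.85-fold higher with TGZ (1.40 to 2.44) and 1.65-fold with BSO plus TGZ (1.25 to 2.18), short of 2-fold. With RGZ and BSO plus RGZ it differed from vehicle by 0.06 (-0.34 to 0.46) and 0.03 (-0.37 to 0.43). The 2 dimmer Cry2 probes, both for Ensembl transcripts, gave 0.80 and 0.84 with TGZ. With BSO plus RGZ they gave -0.47 and -0.82, against 0.03 for the most intense probe.

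Cry1 was at -2.29 with vehicle, -1.74 with TGZ, -1.71 with BSO plus TGZ, -2.58 with RGZ and -2.80 with BSO plus RGZ. Vehicle lies between the TGZ groups above and the RGZ groups below. Against vehicle Cry1 was 1.46-fold higher with TGZ (1.07 to 2.0) and 1.5-fold higher with BSO plus TGZ (1.10 to 2.04). It was 1.42-fold lower with BSO plus RGZ (1.02 to 1.98), and with RGZ the difference was -0.28 (-0.75 to 0.18). The second Cry1 probe gave 0.89 with TGZ, 0.72 with BSO plus TGZ, -0.27 with RGZ and -0.34 with BSO plus RGZ, the same signs. The Cry1 promoter window holds an E-box from -60 to -55 (GRCm38.p6, chr10:85185097-85185126, minus strand).
Cry1 E-box: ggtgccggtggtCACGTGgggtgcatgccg

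Of the activators, Arntl was low on the arrays with RGZ. Its 3 probes for the RefSeq transcript are shown because they read different parts of the same messenger RNA and gave the same direction. They lie on chromosome 7, plus strand, mm9: probe 1 at chr7:120456978-120457037, probe 2 at chr7:120435023-120436706, where its 60 bases span 1684 bases of genome, and probe 3 at chr7:120439030-120439089.
Arntl probe 1: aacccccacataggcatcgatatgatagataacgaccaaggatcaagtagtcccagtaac
Arntl probe 2: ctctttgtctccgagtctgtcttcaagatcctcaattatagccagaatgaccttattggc
Arntl probe 3: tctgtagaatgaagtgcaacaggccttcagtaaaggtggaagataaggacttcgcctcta
Probe 1 was at -1.37 with vehicle, -1.27 with TGZ, -1.10 with BSO plus TGZ, -3.19 with RGZ and -2.35 with BSO plus RGZ. Both arrays with RGZ are low and the other 3 lie close together. Arntl was 3.53-fold lower with RGZ than with vehicle (2.44 to 5.10). With BSO plus RGZ it was 1.98-fold lower (1.44 to 2.71), just short of 2-fold. With TGZ and BSO plus TGZ the differences were 0.10 (-0.33 to 0.53) and 0.27 (-0.15 to 0.69).

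The other Arntl probes set the same arrays apart. Probe 2 gave -1.46 with RGZ and -1.03 with BSO plus RGZ, and 0.29 and 0.19 with TGZ and BSO plus TGZ. Probe 3 was not well above background on the RGZ arrays, with bounds of -1.74 and -1.65. The fourth Arntl probe was not well above background on any array. Arntl signals were dim, at 22.8 (RGZ) to 79.1 (BSO plus TGZ) processed units for probe 1. With normexp background correction, which adds an offset of 50, the RGZ difference was -0.77. An ROR element core, TAGGTCA, lies from 31 to 37 bases after an Arntl RefSeq start and is in capitals here (GRCm38.p6, chr7:113207530-113207559, plus strand).
Arntl ROR element: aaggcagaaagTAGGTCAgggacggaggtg
These letters are present, on either strand, in 2.61% of the RefSeq windows.

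Clock, the partner of BMAL1, was at 2.11 with vehicle, 1.97 with TGZ, 2.0 with BSO plus TGZ, 1.79 with RGZ and 2.04 with BSO plus RGZ. Its differences from vehicle ran from -0.31 to -0.06, with every interval spanning 0. The second Clock probe gave -0.45 with TGZ (-0.85 to -0.04) and -0.41 with RGZ (-0.81 to -0.01), intervals that leave out 0. Its intervals with BSO plus either compound included 0. The third, dimmer probe had intervals against vehicle that all included 0. It was 0.89 higher (0.19 to 1.58) with BSO plus TGZ than with TGZ. Npas2, which can stand in for CLOCK, had 1 probe, not well above background on any array, and no difference is given for it.

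Nr1d1 and Nr1d2 encode the REV-ERB repressors of Arntl. Nr1d2 had the narrowest range of the 9 measured members, 0.12 on the log2 scale. It was at 3.09 with vehicle, 3.15 with TGZ, 3.11 with BSO plus TGZ, 3.16 with RGZ and 3.04 with BSO plus RGZ. Its differences from vehicle ran from -0.05 to 0.07, and with TGZ the interval was -0.34 to 0.46. Its other 2 probes ran from -0.07 to 0.11. Nr1d1, read by 1 probe, was at 0.11, 0.01, 0.00, -0.12 and -0.28 in the same order of arrays. Its differences were -0.10 with TGZ, -0.11 with BSO plus TGZ, -0.23 with RGZ and -0.39 with BSO plus RGZ, and the last interval was -0.79 to 0.01. These intervals leave differences of up to 0.47 for Nr1d2 and down to -0.63 for Nr1d1 with the compounds alone, so they do not show that the levels were equal.

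**Figure D3:**
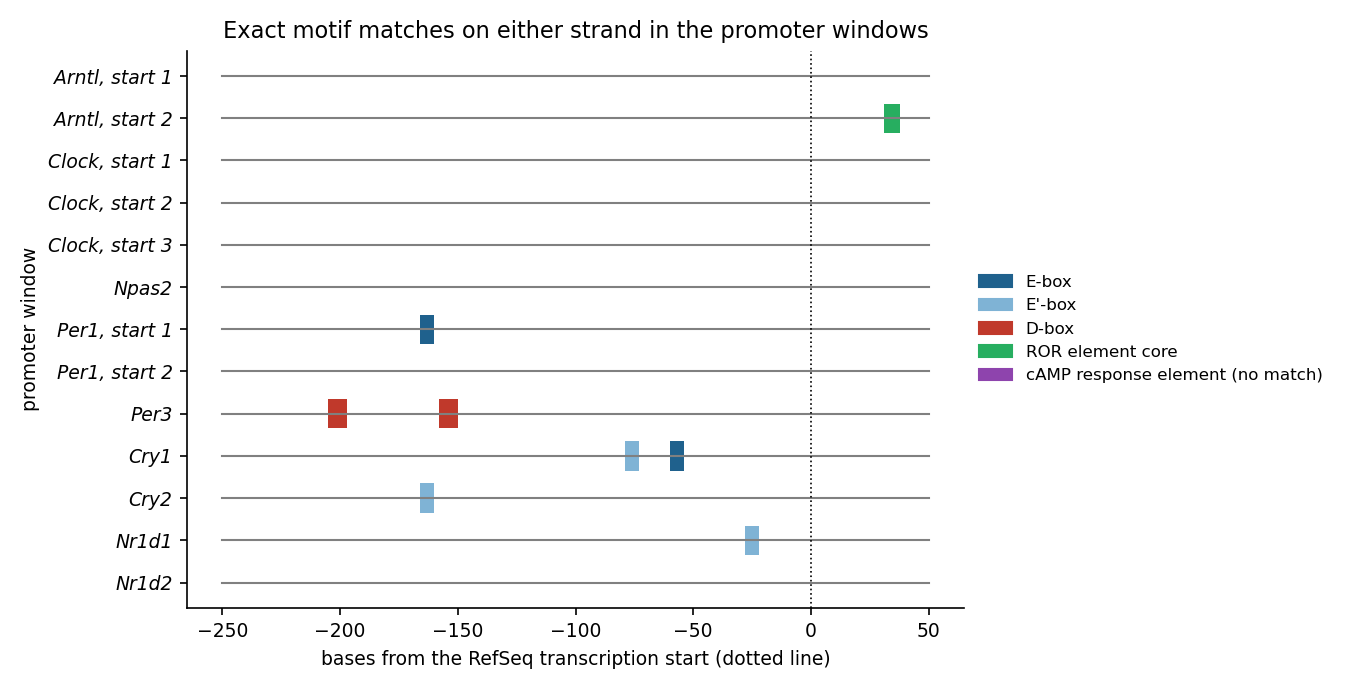
Positions of exact motif matches (coloured boxes) in the 13 RefSeq promoter windows of the clock genes, in bases from the transcription start (x axis), one line per window (y axis). Per3 holds 2 D-boxes, Per1 and Cry1 an E-box each, Cry1, Cry2 and Nr1d1 an E'-box each, and Arntl an ROR element core.

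Of the 10 members, 9 had 13 promoter windows in the RefSeq table, and Per2 had none. The E'-box, CACGTT, was found in Cry1, Cry2 and Nr1d1 and is present in 4.68% of all windows. The cAMP response element TGACGTCA was found in no member's window and is present in 1.79% of all. Clock, Npas2 and Nr1d2 windows held none of the 5 motifs.

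Counted together, 3 of 9 members with a value were past 2-fold with TGZ against vehicle, where 19.6% of all gene names were (10.1% higher and 9.53% lower). Per1 was higher and Per2 and Per3 were lower. With BSO plus TGZ, Per1 was higher and Per3 lower, 2 of 9 members against 14.2% of gene names (8.31% higher and 5.91% lower). With RGZ, Arntl alone of the members was lower, 1 of 9 against 3.33% (1.66% higher and 1.67% lower). With BSO plus RGZ none of the 9 was past 2-fold, against 6.83% (3.05% higher and 3.78% lower), and the nearest was Arntl at 1.98-fold lower. The median log2 difference of the 9 members was 0.06, 0.03, -0.12 and -0.06 in these comparisons, and that of all gene names was 0.02, -0.03, -0.03 and -0.05. With 9 members, the counts alone do not set the clock genes apart from the array as a whole. Median and quantile scaling gave the same members past 2-fold against vehicle. Scaling to spike-in RNA put the median of all gene names at -0.44 with TGZ and -0.22 with BSO plus TGZ. Gene names past 2-fold with TGZ were 2147 higher and 2021 lower, but 1201 and 4288 with spike-in scaling. Per1 then lay at 0.99 with TGZ, and Per2 joined Per1 and Per3 past 2-fold with BSO plus TGZ.

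Each compound was also compared with and without BSO. No group received BSO alone, so an effect of BSO itself and a changed response to the compound cannot be told apart. Per2 was 2.89-fold higher with BSO plus TGZ than with TGZ (2.19 to 3.83), and Per3 at least 4.19-fold higher. These were 2 of 9 members past 2-fold, against 2.06% of gene names (1.57% higher and 0.495% lower). Both levels stayed below vehicle in the BSO plus TGZ pool. The third-farthest member in that comparison, Per1, differed by -0.23 (-0.63 to 0.17). By the second probes, Per3 was at least 0.94 higher on the log2 scale, a bound, and Per2 was 0.31 higher. With normexp Per3 was 0.45 higher, and with the mean over probes Per2 was 0.92 and Per3 0.59 higher, all short of 2-fold.

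With RGZ, BSO went with a lower Per3 and a higher Arntl. Per3 was 1.70-fold lower with BSO plus RGZ than with RGZ (1.28 to 2.25), and Arntl 1.79-fold higher (1.21 to 2.63). The other probes were less clear. The second Per3 probe gave -0.59 (-1.0 to -0.17) but the third gave 0.25 (-0.29 to 0.80), and the second Arntl probe gave 0.42 (-0.14 to 0.99). No member was past 2-fold in that comparison, against 1.25% of gene names (0.523% higher and 0.725% lower). The BSO difference for Per2 was 1.53 with TGZ and -0.38 with RGZ, which differ by 1.91 (1.34 to 2.48 by measurement error). The RGZ interval, -0.78 to 0.02, includes 0. For Per3 it was at least 2.07 with TGZ and -0.76 with RGZ, at least 2.83 apart. The other 7 measured members had intervals of this difference that include 0, from -0.67 for Arntl (-1.37 to 0.04) to 0.25 for Cry1 (-0.40 to 0.90).

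**Figure D4:**
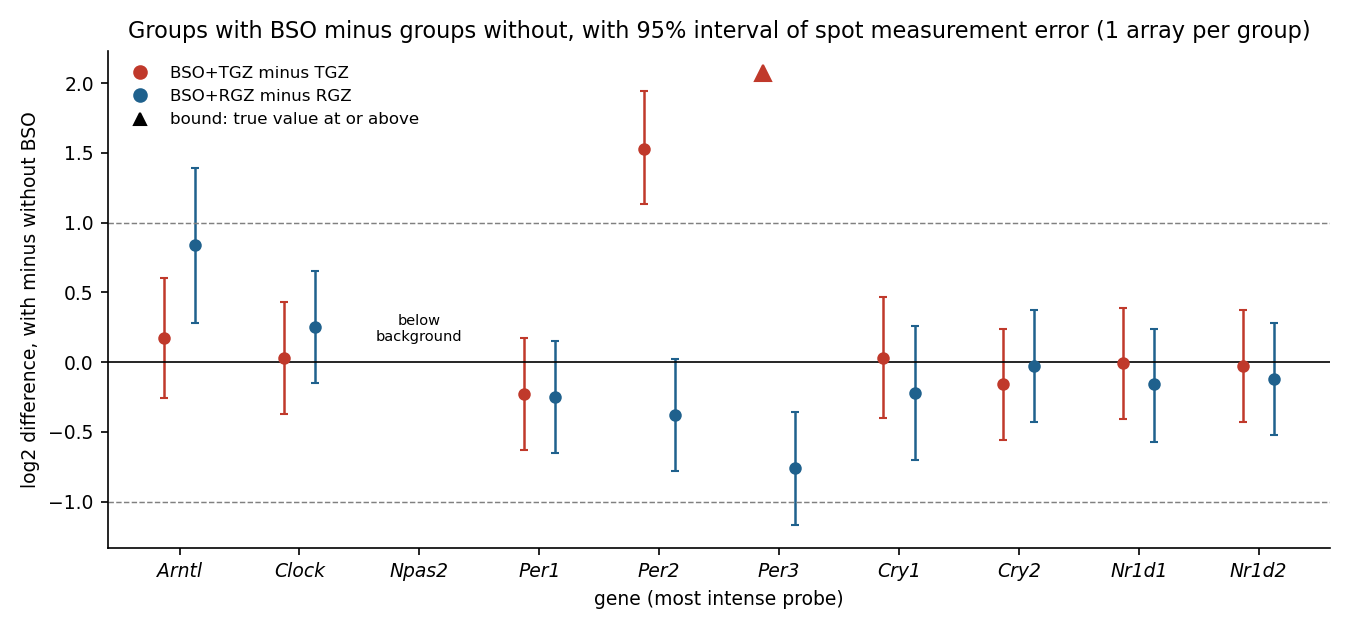
Log2 difference between the groups with and without BSO (y axis) for each clock gene (x axis), on TGZ and on RGZ, with 95% intervals of spot measurement error. The triangle is a bound: Per3 is at 2.07 or above with TGZ. Per2 and Per3 lie above 1 with TGZ and below 0 with RGZ, where the Per2 interval includes 0.

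TGZ and RGZ were given at the same dose and time and share the thiazolidinedione ring. TGZ carries a chromanol group like that of vitamin E, and RGZ an aminopyridine side chain. The compounds were compared as 2 pairs, without and with BSO, over the same arrays as above. Without BSO, 3 of 9 members were past 2-fold, against 18.0% of gene names (9.41% higher and 8.56% lower). Arntl was 3.78-fold higher with TGZ than with RGZ (2.61 to 5.47; 0.92 on the log2 scale with normexp), Per2 7.40-fold lower (5.60 to 9.79) and Per3 at least 13.7-fold lower. On the log2 scale, the other ways of processing put Per2 at -3.44 to -1.74 and Per3 at -4.33 to -1.50. Cry1 and Cry2 were each 1.78-fold higher with TGZ (intervals 1.30 to 2.44 and 1.35 to 2.35), and Per1 1.47-fold higher (1.12 to 1.94). The dimmer probes were past 2-fold, at 2.24-fold for Cry1 (1.41 to 3.55) and at 2.05-fold (1.55 to 2.71) and 2.21-fold (1.67 to 2.92) for Cry2. For Clock, Nr1d1 and Nr1d2 the differences were 0.18 (-0.22 to 0.58), 0.13 (-0.27 to 0.53) and -0.01 (-0.41 to 0.39).

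With BSO in both groups, 2 of 9 members were past 2-fold, against 13.6% of gene names (8.33% higher and 5.28% lower). Arntl was 2.38-fold higher in BSO plus TGZ than in BSO plus RGZ (1.74 to 3.27) and Cry1 2.12-fold higher (1.54 to 2.93). Per2 and Per3 were 1.97-fold (1.49 to 2.60) and 1.93-fold lower (1.44 to 2.60), short of 2-fold, while the second Per3 probe was 2.91-fold lower (2.06 to 4.11). Cry2 was 1.62-fold higher (1.23 to 2.13) by its most intense probe, and 2.22-fold (1.68 to 2.94) and 3.44-fold (2.60 to 4.56) by the dimmer ones. Which members passed depended on the processing here. Cry1 was below 2-fold by 4 of the 9 other ways of processing, and Arntl by 2. With median scaling the members past 2-fold were Arntl, Per2 and Per3, with quantile normalization Arntl and Per3, and with spike-in scaling Per2 and Per3.

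Among 11 partner genes of the loop, the output factors and nuclear receptors that feed back on it, 2 were past 2-fold higher and 4 lower with TGZ, of 10 with a value. Of all gene names, 10.1% were higher and 9.53% lower. Nfil3 was 7.73-fold higher (5.85 to 10.2), and Ciart, a repressor of BMAL1 and CLOCK, was 1.58 higher on the log2 scale. Among the lower ones, Dbp was 16.4-fold lower (12.5 to 21.7) and Hlf 6.80-fold. Tef, another activator at D-boxes, was 2.11-fold lower (1.60 to 2.79). With BSO plus TGZ, 3 were higher and 2 lower of 9 (8.31% and 5.91% of all gene names), but 2 and 3 with spike-in scaling. That scaling put 1392 of 21411 gene names higher and 1967 lower. With RGZ and with BSO plus RGZ none of 9 was past 2-fold, where 3.33% and 6.83% of all gene names were. The list median with TGZ was 0.35, and -0.11 with spike-in scaling. From TGZ to BSO plus TGZ, Dbp and Hlf were 1.13 and 1.27 higher on the log2 scale, as Per2 and Per3 were.

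**Figure D5:**
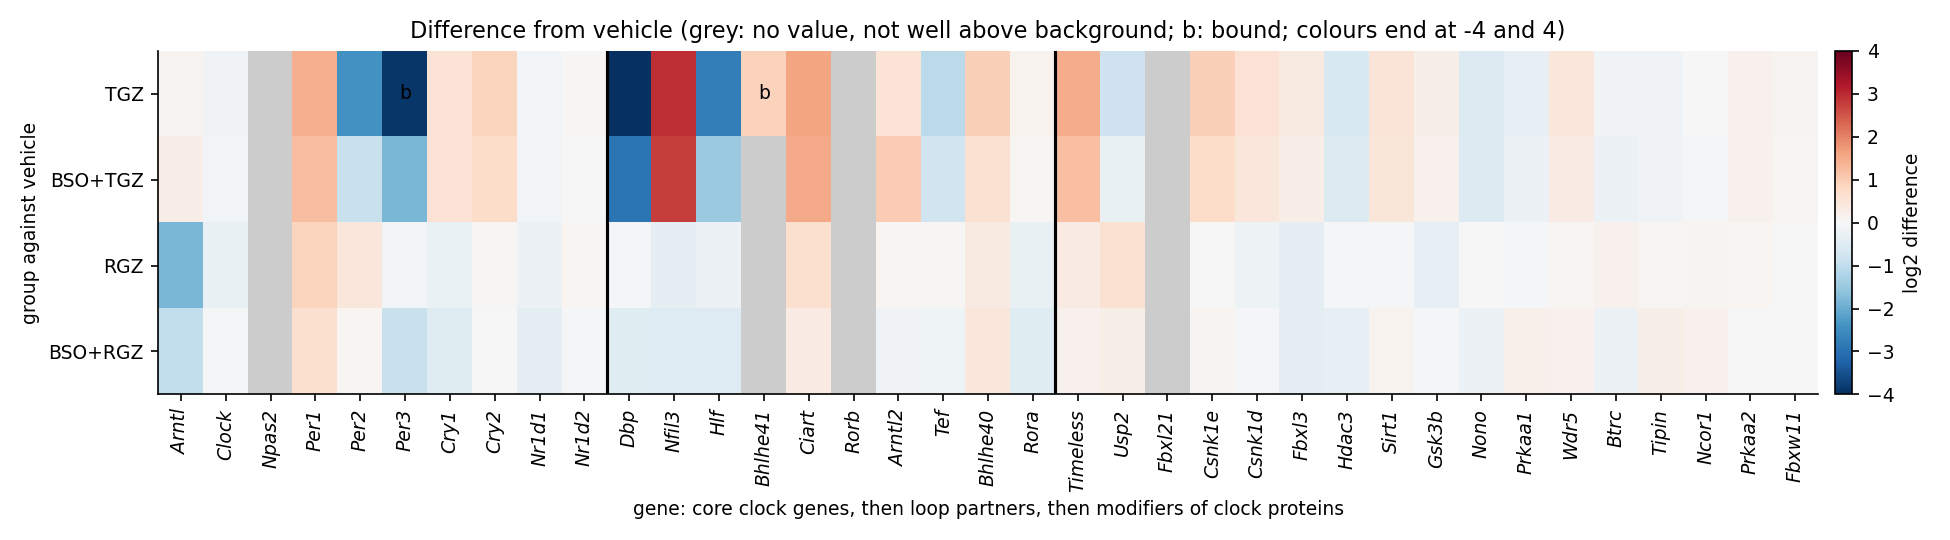
Log2 difference from vehicle (colour, red higher and blue lower, ending at -4 and 4) in the 4 treated groups (rows) for the core clock genes, 10 of the 11 loop partners and the modifiers of clock proteins (columns). Grey marks genes with no value and b a bound. The TGZ rows hold the dark cells at Per2, Per3, Dbp, Hlf and Nfil3, and in the RGZ rows Arntl stands out.

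Of 17 genes that modify clock proteins, such as casein kinases and ubiquitin ligases, Timeless alone was past 2-fold with TGZ and with BSO plus TGZ, at 1.49 and 1.2 on the log2 scale, where 19.6% and 14.2% of all gene names were past 2-fold. Csnk1e, a kinase of the period proteins, was at 0.94 and 0.72. None of 16 with a value was past 2-fold with RGZ or BSO plus RGZ, where 3.33% and 6.83% of all gene names were. With spike-in scaling 3 of the 16 were past 2-fold lower with TGZ, where 4288 of 21247 gene names were. Of 12 genes with daily rhythms in liver, 4 were higher and 2 lower with TGZ, against 10.1% and 9.53% of all gene names. With RGZ 1 was higher and 3 lower, against 1.66% and 1.67%. Rgs16, a regulator of G protein signalling, was 1.10 lower with TGZ and 1.97 lower with RGZ on the log2 scale, and Upp2, a uridine phosphorylase, 1.17 higher and 1.22 lower. Insig2, a brake on SREBP processing, was 2.37 higher with TGZ and differed by -0.07 with RGZ.

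Per1 is a target of both the glucocorticoid receptor and CREB, and the lists of such genes hold it. Of 9 glucocorticoid targets, 5 were past 2-fold higher and 1 lower with TGZ, where 10.1% of all gene names were higher and 9.53% lower. With RGZ 1 was higher and 1 lower, where 1.66% and 1.67% of gene names were. Zbtb16 was 2.55 higher on the log2 scale with TGZ and differed by -0.82 with RGZ, and Tsc22d3 was 3.21 lower and 1.26 lower. Of 9 CREB targets, 7 were higher with TGZ and none was past 2-fold with RGZ, against the same shares of gene names. Nr4a1, an orphan receptor, was 5.57 higher with TGZ and 0.00 apart with RGZ, and Fos 4.04 and 0.16 higher. With spike-in scaling the counts with TGZ were 3 higher of 9 and 5 higher of 9, where 1201 of 21247 gene names were higher.

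The genes whose centred signals over the 5 arrays lay closest to those of a member were listed for the 3 members of widest range, among 18479 other gene names well above background on all arrays. For Per3, with its TGZ value at the floor of that array, they were Fasn, fatty acid synthase, with a root mean square difference of 0.15, Fam47e (0.16) and Prok1 (0.16). Fasn was at 7.60 with vehicle, 3.37 with TGZ, 5.46 with BSO plus TGZ, 7.04 with RGZ and 6.44 with BSO plus RGZ. For Per2 they were Paqr7, a membrane progestin receptor (0.12), Tubd1, delta tubulin (0.16), and Msln, mesothelin (0.18). For Arntl they were an Ensembl transcript without a symbol (0.16), the chemokine gene Ccl21a (0.23) and an unnamed region of chromosome 2 (0.24). With 5 arrays, such likeness is a description of these values.

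The liver label was checked against fixed markers, and all 8 hepatocyte markers were well above background on all 5 arrays. Their summed signal relative to the 75th percentile was 6070 with vehicle and 6250 to 8960 in the treated groups. The 8 neutrophil markers, all above background on at least 1 array, summed to 9.56 with vehicle, 141 with TGZ, 142 with BSO plus TGZ, 24.1 with RGZ and 32.2 with BSO plus RGZ. Of these, 6 of 8 were past 2-fold higher with TGZ, 6 of 8 with BSO plus TGZ, 3 of 7 with RGZ and 4 of 8 with BSO plus RGZ. The shares of all gene names higher were 10.1%, 8.31%, 1.66% and 3.05% in the same order. The 8 macrophage markers summed to between 50.4 and 64.7 on the 5 arrays. The 6 endothelial markers summed to 59.2 with vehicle and to 37.7 with TGZ, the lowest. They did not move together: with TGZ 2 were past 2-fold higher and 2 lower, with a median difference of -0.04. Of all gene names, 10.1% were higher and 9.53% lower. Of the cholangiocyte markers Krt7 and Epcam, and of the lymphocyte markers Cd79a, were not above background on any array, and the summed signals of these lists ran from 4.25 to 13.3 and from 6.35 to 9.42. The 6 stellate cell and fibroblast markers had a median difference of -0.76 with RGZ and -0.61 with BSO plus RGZ, on the arrays where Arntl was low. On these, 1 and 2 of 6 were past 2-fold lower, where 1.67% and 3.78% of all gene names were. Erythroid markers summed to 423 with vehicle, 251 with RGZ and 264 with BSO plus RGZ. In RNA of whole liver, fewer cells of a type and less RNA per cell cannot be told apart. The part of cell makeup in the clock gene differences was not tested.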

How the data were processed

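RNA pooled from 6 livers per group was labelled with Cy3 and hybridised to 1 Agilent array per group, 5 arrays on 1 slide. Per the file headers, the authors scanned with Agilent Feature Extraction 12.0.3.1, whose processed signal is an intensity after background subtraction and detrending, with its estimated error. The authors' deposited value table is in log2 units (column medians 3.92 to 4.07). Against the array files it differs by 1 constant per array, which shows scaling between arrays and no centring of genes. What software did this scaling: not given in the sources used here.

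Spots of a probe were averaged, divided by each array's 75th percentile over non-control probes (141.5 to 208.4) and log2-transformed. Each member probe was printed in 1 spot. No member spot was saturated, and 1 was flagged as a background outlier (the second Cry1 probe with BSO plus RGZ). The median measurement error was 0.146 on the log2 scale among probes well above background, larger than the median SD of probes printed in 10 spots (0.041 to 0.044). Normexp and quantile normalization used limma 3.58.1 in R 4.3.3. The difference code was tested on simulated data that held no bounds and no changes in dim probes. The members, gene lists, motifs, markers and alternatives were chosen with earlier results of these data known. The rule for named genes took all 10 members, up to 4 genes of widest range from each list, and 3 genes most like each of the 3 members of widest range. Tef and Ciart, outside that rule, and the printed promoter sites were chosen after values were seen. Promoter sequences are those of RefSeq (GRCm38.p6), and probe positions are mm9 per the file headers. The 2 builds were not converted. Some genes of the lists are counted but not reported here by name.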

Additional observations from a re-analysis of the deposited data

Results flagged for a closer look

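By its most intense probe, Per2 differed from vehicle in opposite directions under the compounds. The differences were -2.43 with TGZ and 0.46 with RGZ on the log2 scale, with intervals that left out 0. The second Per2 probe gave -0.56 with TGZ and 0.03 with RGZ (-0.43 to 0.49). By its most intense probe, Per3 differed in opposite directions when BSO was added, by at least 2.07 with TGZ and by -0.76 with RGZ. The second Per3 probe gave at least 0.94 and -0.59. The third gave no value with TGZ and 0.25 (-0.29 to 0.80) with RGZ. With TGZ, normexp put the Per3 difference at 0.45 and the mean over probes at 0.59. Cry1 differed from vehicle by 0.58 with BSO plus TGZ and by -0.50 with BSO plus RGZ. The second Cry1 probe gave 0.72 and -0.34, and the interval of the latter (-1.13 to 0.44) includes 0. With 1 pool per group, none of these differences between the compounds was tested.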

How the results depend on the processing

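Beside the main processing, 9 other ways of computing the values and a 1.5-fold threshold were tried. Of the differences of single members under these, 598 stayed inside the interval of measurement error around their main value, and 42 fell outside it. Keeping dim probes, requiring signal on all arrays, the submitters' spot flags and the deposited values reuse the same probe values. Under these a difference could hardly move and none fell outside, so the total of 598 overstates stability. Of the 42, 16 were under spike-in scaling (56 stayed inside), 16 under the mean over probes (56 inside) and 10 under normexp (62 inside). No member whose measurement interval left out 0 changed sign. At 1.5-fold the members counted against vehicle were 4 with TGZ (37.5% of all gene names), 4 with BSO plus TGZ (31.1%), 2 with RGZ (13.6%) and 3 with BSO plus RGZ (22.7%). They were 2 for BSO plus TGZ against TGZ (8.65%), 2 for BSO plus RGZ against RGZ (7.09%), 5 for TGZ against RGZ (37.1%) and 5 between the BSO pair (31.2%). With normexp, whose offset of 50 compresses dim signals, 0 members were past 2-fold for RGZ against vehicle and 0 between the BSO pair, 1 was for BSO plus TGZ against TGZ, and 1 had BSO differences 2-fold apart between compounds. With genes well above background on all arrays, which removes Per3, the count was 1 for BSO plus TGZ against vehicle, 1 against TGZ and 1 for the BSO differences. With the mean over a gene's probes, dim probes included, it was 2 for TGZ, 1 for BSO plus TGZ and 1 for BSO plus RGZ against vehicle, 0 for BSO plus TGZ against TGZ, 4 between the BSO pair and 1 for the BSO differences. No paired analysis was possible because each group has 1 array, and for the same reason no array could be left out. Over all gene names, normexp left 0.215% to 9.89% past 2-fold in the 8 comparisons, and keeping dim probes gave 6.73% to 18.7%. Requiring signal on all arrays gave 2.40% for RGZ against vehicle, 1.27% for BSO plus TGZ against TGZ and 0.649% for BSO plus RGZ against RGZ. The split of higher to lower moved by over 10 points with median scaling (844 to 622 for BSO plus RGZ against vehicle, 257 to 145 for BSO plus TGZ against TGZ, 154 to 104 for BSO plus RGZ against RGZ, 1368 to 1661 between the BSO pair) and with quantile normalization (133 to 113 for BSO plus RGZ against RGZ). For BSO plus TGZ against TGZ (326 to 103 in the main processing), keeping dim probes gave 1373 to 1260. Requiring signal on all arrays gave 202 to 32 there. For RGZ against vehicle (353 to 356 in the main processing), normexp gave 139 to 90. Spike-in scaling gave 1392 to 1967 for BSO plus TGZ, 459 to 259 for RGZ and 907 to 577 for BSO plus RGZ against vehicle. It gave 694 to 41 for BSO plus TGZ against TGZ, 965 to 4637 for TGZ against RGZ and 1067 to 2410 between the BSO pair. Signal near background limits Npas2 on all arrays, Per3 on the TGZ array and the third Arntl probe on the RGZ arrays.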

Other observations

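The genes with a D-box in a RefSeq promoter window, Per3 among them, were looked at after the Per3 values were seen. Of 132 such genes with a value for TGZ against vehicle, 23 (17.4%) were at least 2-fold lower and 15 (11.4%) higher. Among the 12271 genes with any window in the table, 11% were lower and 10.2% higher. With RGZ, 7 of 132 (5.30%) were lower, against 1.76% of genes with a window. From TGZ to BSO plus TGZ, 8 of 127 (6.30%) were at least 2-fold higher, against 1.54%. Of 5 genes with 2 or more D-boxes in a window and a value, Per3 included, 1 was at least 2-fold lower with TGZ, which is Per3 itself, and their median difference was -0.25. The gene set was not tested.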
